A study of Mus musculus with 4 samples.

Results

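The expression of 9 genes that mark or specify subtypes of forebrain interneurons was examined in FACS-enriched *Hmx3*-lineage cells with and without *Dnmt1*. The genes were the COUP-TF nuclear receptor genes *Nr2f1* and *Nr2f2*, the homeobox gene *Prox1*, the zinc finger genes *Sp8* and *Sp9*, the serotonin receptor gene *Htr3a*, and the transcription factor genes *Npas1*, *Maf* and *Satb1*. They were taken by symbol from the GENCODE mouse annotation, and each of the 9 symbols matched 1 of the 55573 gene identifiers counted. The samples were tdTomato-positive cells sorted from the basal telencephalon of mouse embryos at E16, a region that the study's text narrows to the preoptic area (POA). Both groups carried the *Hmx3-Cre* transgene and the tdTomato reporter, so that only cells with a history of *Hmx3* expression were labelled. The wild-type group (WT) was wild type for *Dnmt1*. In the knockout group (KO), loxP sites around exons of *Dnmt1* led to a null allele in the labelled cells. Cells were pooled from 12 WT and 6 KO embryos, and 2 libraries were made per genotype, which the series text calls biological replicates and the study's methods call technical duplicates. The SDs and p-values below therefore measure the spread between libraries, which may be technical.

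The 4 libraries held between 8075102 and 9995968 counts. At this depth 3 counts correspond to 0.294 to 0.372 CPM (counts per 1000000, on library sizes scaled by the TMM method of edgeR). WT replicate 1 stood apart with 8.66% of its counts on mitochondrial rRNA, against 1.51% to 2.32% in the other libraries. *Dnmt1* itself had 385 and 446 CPM in WT and 283 and 281 CPM in KO, with both KO libraries below both WT libraries (log2 KO/WT ratio -0.56, standard error (SE) 0.14, adjusted p in edgeR = 0.0511). Counts over the whole gene do not show the deleted exons alone. *Hmx3*, the gene whose lineage was sorted, had 78.6 and 90.0 CPM in WT and 71.8 and 93.7 CPM in KO, and these ranges overlapped. GABAergic markers were abundant in every library, with a summed level of 1583 to 1732 CPM in WT and 1631 to 1759 CPM in KO over 9 genes. In pooled sorted cells, fewer cells of a type and less RNA per cell cannot be told apart.

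As background, cortical interneurons arise in the ganglionic eminences and the POA of the ventral telencephalon and migrate into the cortex. The orphan nuclear receptors COUP-TFI (*Nr2f1*) and COUP-TFII (*Nr2f2*), PROX1 and the Sp family proteins SP8 and SP9 are known for shaping interneurons of the caudal ganglionic eminence and the POA, and *Htr3a* marks much of this population. *Npas1* encodes a bHLH-PAS transcription factor of ventral forebrain GABAergic neurons. *Maf* and *Satb1* are better known from interneurons of the medial ganglionic eminence, where SATB1 promotes the somatostatin subtype. DNMT1 copies DNA methylation at CpG dinucleotides to the newly made strand, and methylation was not analysed here.

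Since CpG is the substrate of DNMT1, the CpG content in front of these genes is shown for *Prox1* and *Sp8*, the pair with the lowest KO to WT ratios, and for *Sp9*, the closest relative of *Sp8*. The 200 bases are those from 250 to 51 bases before the most upstream RefSeq start (GRCm38.p6), and capitals mark each CpG. RefSeq lists 2 starts for *Prox1*, 3 for *Sp8* and 1 for *Sp9*, and windows at the other starts are not counted here. The *Prox1* window (chr1:190170878-190171077, minus strand) held 20 CpGs, the *Sp9* window (chr2:73271676-73271875, plus strand) 13 and the *Sp8* window (chr12:118846079-118846278, plus strand) 1.
Prox1: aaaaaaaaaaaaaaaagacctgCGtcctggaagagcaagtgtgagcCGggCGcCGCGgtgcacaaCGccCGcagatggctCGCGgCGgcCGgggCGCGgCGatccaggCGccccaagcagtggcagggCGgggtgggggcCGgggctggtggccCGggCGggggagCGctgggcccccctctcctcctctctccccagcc
Sp9: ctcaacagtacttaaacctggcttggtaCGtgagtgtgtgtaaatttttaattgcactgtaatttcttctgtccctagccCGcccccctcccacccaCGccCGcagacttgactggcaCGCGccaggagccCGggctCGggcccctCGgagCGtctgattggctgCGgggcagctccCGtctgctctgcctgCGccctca
Sp8: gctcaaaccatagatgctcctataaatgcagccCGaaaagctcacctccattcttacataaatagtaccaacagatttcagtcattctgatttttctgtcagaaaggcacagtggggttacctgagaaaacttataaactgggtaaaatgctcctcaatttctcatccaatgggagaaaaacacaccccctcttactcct

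Among 32851 RefSeq promoter windows of the same length, 90.5% held fewer CpGs than that of *Prox1*, 77.9% fewer than that of *Sp9* and 10.9% fewer than that of *Sp8*. Windows were found for 7 of the 9 genes, without *Htr3a* and *Maf*. Of the others, *Nr2f1* held 20 CpGs, *Npas1* 6, *Satb1* 2 and *Nr2f2* 1. Only the most upstream of 5 RefSeq starts was used for *Satb1*, and of 2 for *Nr2f1*. The GC box GGGCGG, the type of site that Sp proteins bind, was found on either strand in 3 of the 7 windows (*Nr2f1*, *Prox1* and *Sp9*) and in 24.6% of all windows. The letters AGGTCA, which nuclear receptors recognise, and TGCTGA, found in sites of Maf proteins, were in none of the 7 windows and in 11.4% and 13.1% of all windows. None of these 3 motifs contains another, and each GC box contains a CpG. The windows of *Nr2f1* and *Npas1* lie within the longer GENCODE gene models of these genes.

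The comparison of KO with WT asks which genes depend on *Dnmt1* in these cells. All 9 genes passed the expression filter, and 0 of 9 passed an adjusted p of 0.05 in edgeR's quasi-likelihood test, whereas 7.90% of the 16832 tested genes did, 7.33% higher and 0.570% lower in KO. Of all calls 92.8% were thus higher in KO (1233 higher and 96 lower). The share was 64.6% after length and GC effects had been removed (the length and GC correction below), where calls rose in both directions (1845 higher and 1011 lower). It was lower too when either WT library was left out. With DESeq2 1 of the 9 genes, *Prox1*, passed as lower, beside 8.87% of all tested genes in either direction, and with limma-voom 0 passed, beside 7.81%. At an unadjusted p of 0.05 it was 1 gene, again *Prox1*, against 22.7% of all tested genes. The 9 log2 fold changes ran from -0.61 (*Prox1*) to 0.21 (*Npas1*). Their median was -0.18, beside -0.026 over all tested genes, and their median absolute value was 0.211, beside 0.315. In 1 gene (*Nr2f1*) both KO libraries lay above both WT libraries and in 2 genes (*Prox1* and *Sp8*) both lay below, beside 28.3% and 25.2% of all tested genes, and 53.5% of all tested genes had genotypes that did not overlap in one direction or the other.

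**Figure D1:**
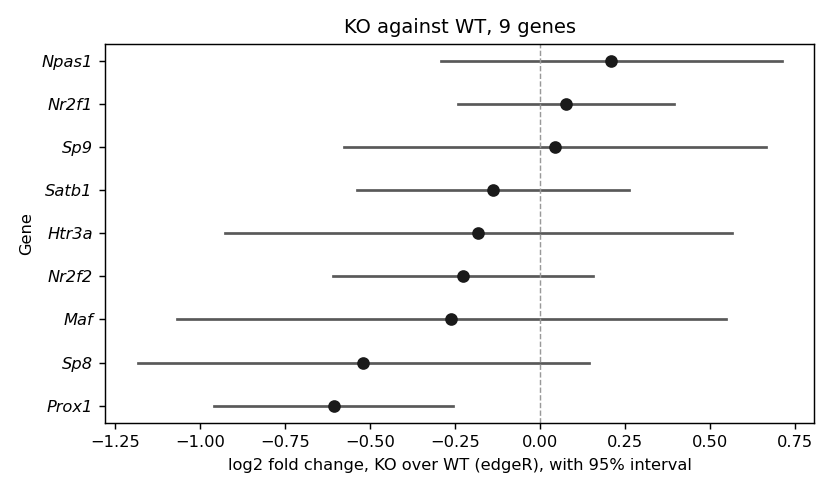
Log2 fold change of KO over WT (x axis) for each of the 9 genes (y axis, ordered by value), with points for the edgeR estimate and lines for its 95% interval. The intervals of 8 genes include 0, and that of *Prox1* runs from -0.96 to -0.25.

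The COUP-TF receptors bind DNA as dimers and act mostly as repressors of transcription. *Nr2f1* (ENSMUSG00000069171) at chr13:78188973-78199757, minus strand of GRCm38, had 1158 and 1364 counts in the WT libraries and 1215 and 1345 in the KO libraries. This corresponds to 144 and 134 CPM in WT and 144 and 148 CPM in KO, so that the lowest KO library lay just above the highest WT library. The log2 fold change was 0.077 (SE 0.14, adjusted p in edgeR = 0.785), and it was -0.027 with the length and GC correction. Its 95% interval, from -0.24 to 0.39, corresponds to a KO level between 0.847 and 1.31 times that of WT.

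*Nr2f2* (ENSMUSG00000030551) at chr7:70351944-70366735, minus strand, had 166 and 130 CPM in WT and 120 and 133 CPM in KO. WT replicate 1 was the highest library, and WT replicate 2 lay between the KO libraries. The log2 fold change was -0.23 (SE 0.17, adjusted p in edgeR = 0.462), with an interval from -0.61 to 0.16. Without WT replicate 2, the remaining WT library was the high one and the value was -0.40 with an adjusted p of 0.0266 in edgeR, whereas without WT replicate 1 it was -0.044. In such fits the single library of a genotype is assumed to vary like the pair of the other genotype. Lower calls over all tested genes were also more frequent without WT replicate 2 than in the reported fit.

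**Figure D2:**
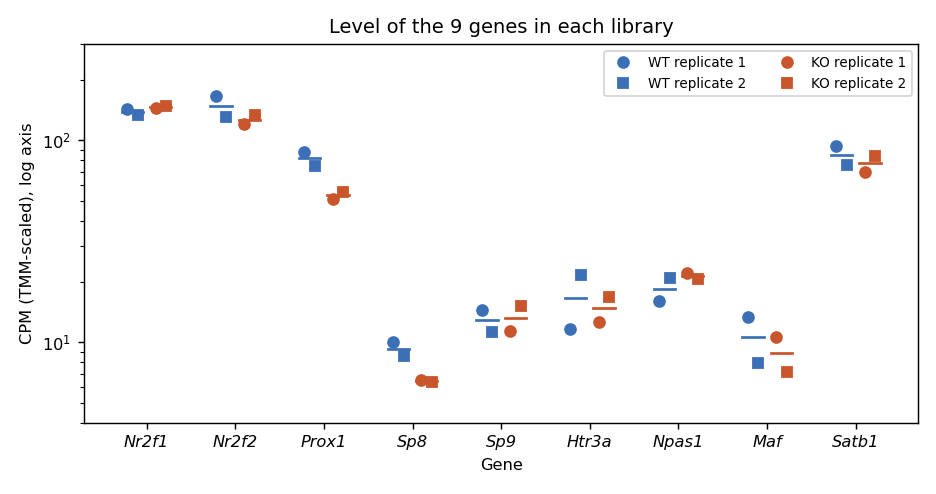
Level of each gene (x axis) in CPM on a log axis (y axis), with 1 symbol per library (WT blue, KO orange, replicate 1 circles, replicate 2 squares) and a bar at the mean of each genotype. *Prox1* and *Sp8* have both KO symbols below both WT symbols, and the genotypes overlap in 6 of the 9 genes.

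Because both COUP-TF genes were counted in the same library, their ratio does not depend on the scaling between libraries. It can still depend on length and GC effects that differ between libraries, and the shares below are not corrected for these. With the length and GC correction the log2 fold changes were -0.027 (*Nr2f1*) and -0.17 (*Nr2f2*), against 0.077 and -0.23 without it. *Nr2f1* made up 46.3% of the counts of the pair in WT replicate 1 (95% Wilson interval 44.4% to 48.3%) and 50.7% in WT replicate 2 (48.8% to 52.6%). In KO the shares were 54.5% (52.5% to 56.6%) and 52.7% (50.8% to 54.6%), so that both KO libraries lay above both WT libraries. The mean share was 48.5% ± 3.09 in WT and 53.6% ± 1.29 in KO (SD, n = 2), a difference of 5.10 percentage points (two-sided exact permutation p = 0.333, the smallest that 2 against 2 libraries allow). The intervals cover counting error only, and that of WT replicate 2 overlapped those of both KO libraries. Antisense transcripts overlap both genes, *A830082K12Rik* over 2.42% of the exonic bases of *Nr2f1* and *B130024G19Rik* over 7.46% of those of *Nr2f2*. Since the strand setting of the counting is not given in the sources used here, their reads cannot be told apart in these stretches. *B130024G19Rik* gave 220 and 256 counts for the WT libraries against 305 and 327 for KO (log2 KO/WT ratio 0.47, adjusted p in edgeR = 0.149).

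**Figure D3:**
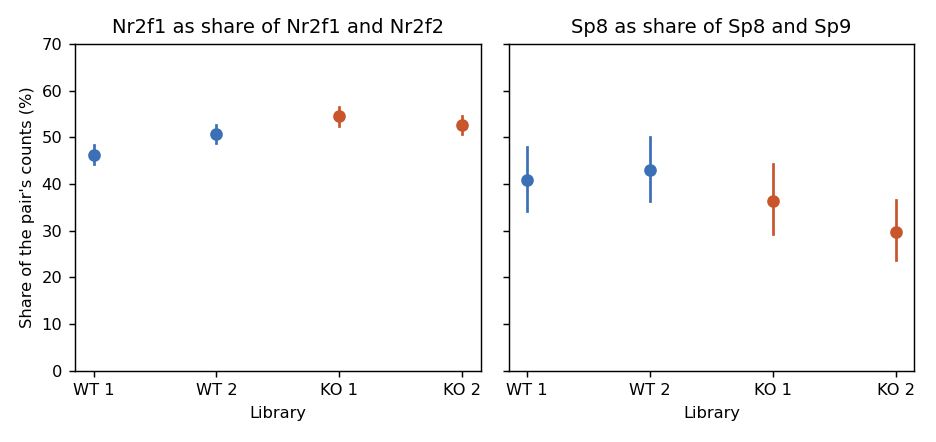
Share of the counts of a gene pair (y axis, percent) that fell on *Nr2f1* (left) and on *Sp8* (right) in each library (x axis), with 95% Wilson intervals for counting error. The *Nr2f1* share was 46.3% and 50.7% in WT and 54.5% and 52.7% in KO, and the *Sp8* share was 40.9% and 43.1% in WT and 36.4% and 29.7% in KO.

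*Prox1* (ENSMUSG00000010175) encodes a homeobox factor that caudally derived interneurons need for their migration and maturation, and that other cells such as lymphatic endothelium also use. It lies on chromosome 1 from 190118035 to 190170714 on the minus strand and gave 706 and 766 counts for the WT libraries against 433 and 502 for KO. Its level was 87.6 and 75.1 CPM in WT and 51.5 and 55.3 CPM in KO, with both KO libraries below both WT libraries. The means were 81.3 ± 8.90 CPM in WT and 53.4 ± 2.69 CPM in KO (SD, n = 2). The log2 KO/WT ratio was -0.61 (SE 0.15) and its adjusted p in edgeR 0.0510, which did not pass the threshold. The 95% interval from -0.96 to -0.25 corresponds to a KO level between 0.515 and 0.838 times that of WT.

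The call on *Prox1* depended on the fit. Across 8 other fits of genotype alone to all libraries, which changed the tool, the scaling, the filter or a length and GC correction, the value was between -0.61 and -0.49 and the adjusted p between 0.00671 and 0.121. It passed 0.05 in 4 of these 8 fits, DESeq2 among them (adjusted p = 0.0322), and not with limma-voom (adjusted p = 0.0575). With 1 library left out, the value was between -0.73 and -0.50, and it passed when either WT library was left out but not when either KO library was. Without a WT library the spread came from the KO pair, and the SE was 0.16 and 0.15. Without a KO library it came from the WT pair, which differed more, and the SE was 0.31 and 0.31. Lower calls over all tested genes also became more frequent when either WT library was left out. The antisense gene *Prox1os* overlaps 1.59% of the exonic bases of *Prox1* and had at most 28 counts in any library. Of 5 lymphatic endothelial markers 2 were tested and 0 passed. One of the 5, *Ccl21a*, could not be matched to a single identifier. *Lyve1* had 0 counts in all 4 libraries, and the remaining 3 had no common direction. *Pdpn* had 7 and 9 counts in the WT libraries against 15 and 28 in the KO libraries, *Flt4*, which was not tested, had 7 and 11 against 4 and 3, and *Reln*, which neurons also express, had 2251 and 3187 against 1945 and 2194. The summed level of 15 neuron markers was likewise lower in both KO libraries (5404 and 5424 CPM) than in WT (7386 and 7802 CPM), and its part in the *Prox1* value was not tested.

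**Figure D4:**
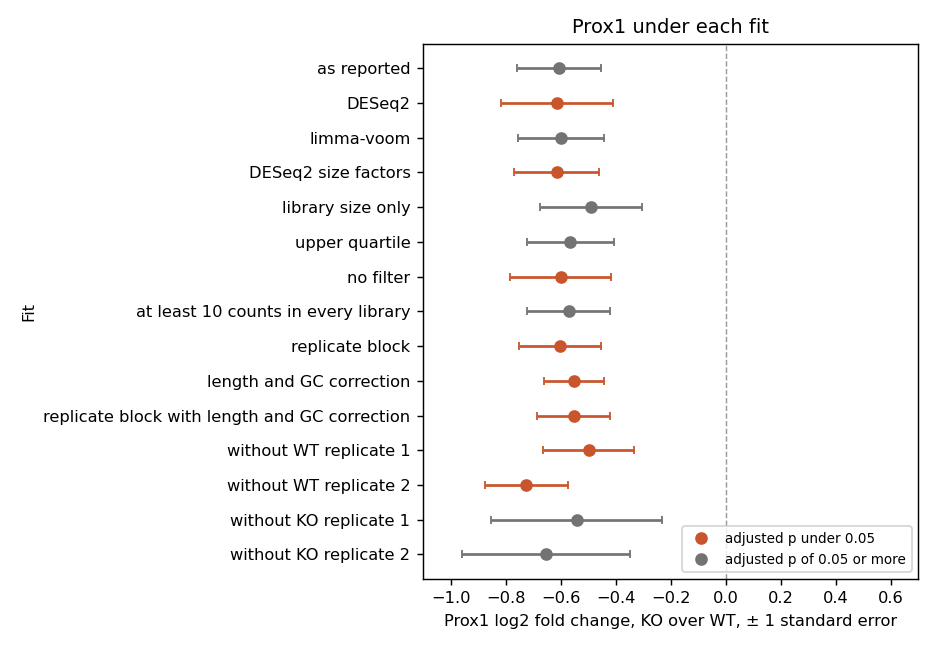
Log2 fold change of *Prox1*, KO over WT (x axis), in the reported fit and in each other fit (y axis), with bars of 1 standard error. Every estimate lies below 0, between -0.73 and -0.49, and orange points mark an adjusted p under 0.05.

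*Sp8* and *Sp9* encode closely related zinc finger factors with partly shared roles in olfactory bulb, striatal and cortical interneurons. *Sp8* (ENSMUSG00000048562) at chr12:118846329-118852576, plus strand, gave 81 and 87 counts for the WT libraries against 55 and 58 for KO. Its level was 10.1 and 8.52 CPM in WT and 6.54 and 6.39 CPM in KO, and the genotypes did not overlap. The log2 fold change was -0.52 (SE 0.29, adjusted p in edgeR = 0.327). The interval from -1.18 to 0.14 is wide at these counts and reaches from a KO level of 0.44 times that of WT to one of 1.1 times. In every other fit tested *Sp8* kept this sign, from -0.65 to -0.40, and did not pass.

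*Sp9* (ENSMUSG00000068859) at chr2:73271925-73284706, plus strand, had 14.5 and 11.3 CPM in WT and 11.4 and 15.1 CPM in KO. The libraries of the genotypes interleaved, and the log2 fold change was 0.044 (SE 0.27, adjusted p in edgeR = 0.944) with an interval from -0.58 to 0.67. *Sp8* made up 40.9% of the counts of the *Sp8* and *Sp9* pair in WT replicate 1 and 43.1% in WT replicate 2, against 36.4% and 29.7% in KO. Each of these shares rests on 151 to 202 counts. The Wilson intervals of WT replicate 2 (36.4% to 50.0%) and KO replicate 2 (23.8% to 36.5%) overlapped only at their edges, and the intervals of the other WT and KO libraries overlapped more. The mean share was 42.0% ± 1.53 in WT and 33.1% ± 4.72 in KO (SD, n = 2), a difference of -8.91 percentage points (two-sided exact permutation p = 0.333, the smallest possible).

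*Htr3a* (ENSMUSG00000032269) encodes a subunit of the only serotonin receptor that is an ion channel. It lies on chromosome 9 from 48899213 to 48911099 on the minus strand and gave 94 and 220 counts for the WT libraries against 106 and 153 for KO. The KO libraries, at 12.6 and 16.9 CPM, lay between the WT libraries at 11.7 and 21.6 CPM. The log2 fold change was -0.18 (SE 0.32, adjusted p in edgeR = 0.786) with a wide interval from -0.93 to 0.56. *Htr3b*, the partner subunit, had 3 counts in WT replicate 1 and 0 in the other libraries, at or under the floor. Of 14 serotonin receptor genes, 10 were tested, 1 was higher in KO and 0 were lower, beside 7.33% and 0.570% of all tested genes. The higher gene was *Htr6*, a G protein-coupled receptor, which gave 7 counts for each WT library against 63 and 70 for KO (log2 KO/WT ratio 3.28, SE 0.43, adjusted p in edgeR = 0.00243).

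*Npas1* (ENSMUSG00000001988) at chr7:16455721-16477728, minus strand, had 16.01 and 20.87 CPM in WT and 22.1 and 20.7 CPM in KO. WT replicate 1 was the low library, and WT replicate 2 lay between the KO libraries. The log2 KO/WT ratio of 0.21 (SE 0.22, adjusted p in edgeR = 0.607) was the highest of the 9 genes, with an interval from -0.29 to 0.71. It was below that of *Sp9* without WT replicate 1 (0.029 against 0.23) and without KO replicate 1 (0.17 against 0.24). Without WT replicate 2 or KO replicate 2 it stayed the highest. *Maf* (ENSMUSG00000055435) at chr8:115682942-115707794, minus strand, encodes a basic leucine zipper factor. It had 13.4 and 7.94 CPM in WT and 10.6 and 7.16 CPM in KO, with overlapping genotypes (log2 KO/WT ratio -0.26, SE 0.35, adjusted p in edgeR = 0.704). At 65 to 108 counts its interval ran from -1.07 to 0.55. *Satb1* (ENSMUSG00000023927) at chr17:51736187-51833290, minus strand, encodes a chromatin organiser. It had 94.1 and 75.2 CPM in WT and 69.8 and 83.9 CPM in KO, again with overlap (log2 KO/WT ratio -0.14, SE 0.17, adjusted p in edgeR = 0.683, interval -0.54 to 0.26). Genes on the other strand overlap 5.35% of the exonic bases of *Sp9* (*Cir1*, 33 to 48 counts) and 0.673% of those of *Satb1* (*Gm6934*, 2 to 11 counts), and *Gm36931* on the same strand overlaps 0.82% of *Satb1* (20 to 56 counts). *Gm15655*, opposite to *Maf*, had 0 counts in all 4 libraries.

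Levels of different genes were compared per length, as CPM per kb of annotated exonic bases. *Nr2f1* was the highest of the 9 genes with 27.2 ± 1.40 CPM per kb in WT and 28.7 ± 0.511 in KO (SD, n = 2). *Nr2f2* followed with 17.2 ± 3.00 CPM per kb in WT and 14.7 ± 1.02 in KO, and the ranges of these neighbours did not overlap in either genotype. In WT, *Prox1* (9.70 CPM per kb), *Htr3a* (7.98) and *Npas1* (6.13) came next with overlapping ranges between neighbours. In KO the same 3 genes stood within a narrower range in the reverse order, *Npas1* at 7.12, *Htr3a* at 7.07 and *Prox1* at 6.36 CPM per kb, again with overlap between neighbours. *Satb1* (4.45 CPM per kb in WT), *Sp9* (2.56), *Sp8* (2.04) and *Maf* (1.29) held the lower ranks in the same order in both genotypes, and no neighbours among them overlapped. Annotated exons that these cells do not use would lower such values, and *Satb1* has the longest exonic length with 19027 bases.

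Relatives of the 9 genes were then examined, from a list of 23 genes of the same families. Of these, 18 were tested, 3 were higher and 2 were lower in KO, beside 7.33% and 0.570% of all tested genes. The median log2 KO/WT ratio was -0.12. *Npas2*, a PAS factor of the circadian clock, gave 16 and 29 counts for the WT libraries against 181 and 182 for KO (log2 KO/WT ratio 3.08, SE 0.30, adjusted p in edgeR = 0.000465). *Nr2e1*, an orphan receptor of neural stem cells, had 4.34 and 4.60 CPM in WT and 22.1 and 19.6 CPM in KO (log2 KO/WT ratio 2.21, adjusted p in edgeR = 0.00124). *Npas3*, named because it completes the count, was higher by 0.80 (edgeR adjusted p = 0.0177), but not without KO replicate 2 (0.74, adjusted p = 0.157). *Npas4*, an activity-regulated factor, fell by 1.03 on the log2 scale (edgeR adjusted p = 0.0235), and without KO replicate 1 it was at -0.85 and did not pass (adjusted p = 0.183). Of the Sp relatives, *Sp1* to *Sp4* were tested and did not pass, with *Sp4* at -0.58 (edgeR adjusted p = 0.0701).

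**Figure D5:**
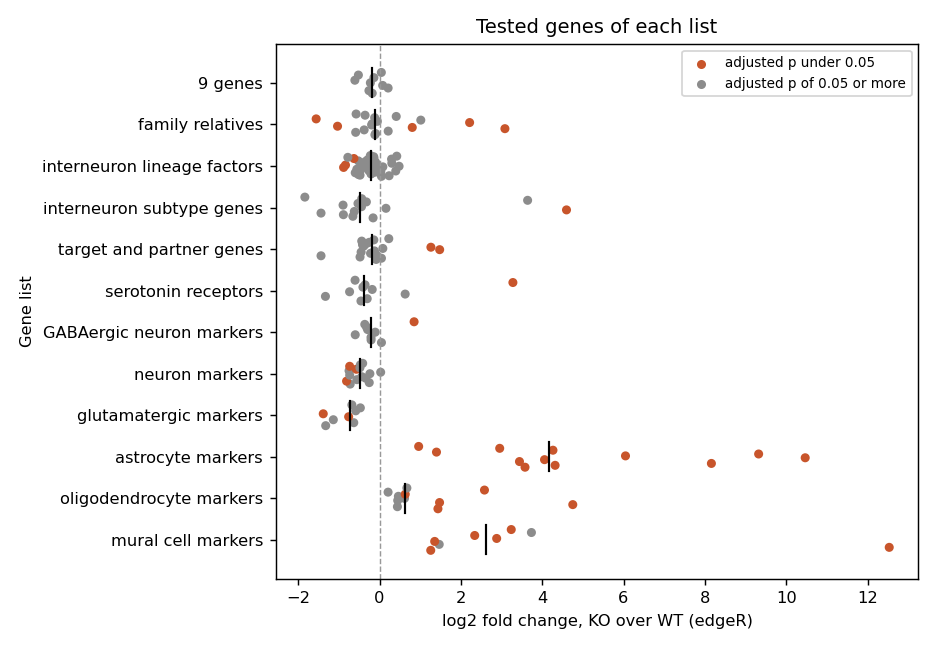
Log2 fold change of KO over WT (x axis) of each tested gene in 12 gene lists (y axis), with a vertical bar at each list's median and orange points for an edgeR adjusted p under 0.05. The 9 genes lie between -0.61 and 0.21, all astrocyte markers lie above 0, and estimates for genes at 0 counts in WT depend on the prior count.

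Among 36 transcription factors of interneuron lineages, all were tested, 0 were higher and 3 were lower in KO, beside 7.33% and 0.570% of all tested genes. The median log2 KO/WT ratio was -0.22. The 3 genes were *Isl1*, a LIM-homeobox factor of ventral forebrain neurons (-0.88, SE 0.16, edgeR adjusted p = 0.0126), *Mef2c*, an activity-dependent MADS-box factor (-0.84, edgeR adjusted p = 0.0216), and *St18*, a zinc finger factor (-0.63, edgeR adjusted p = 0.0403). None of these calls held when either KO library was left out. The values were then -0.86 and -0.89 for *Isl1*, -0.79 and -0.86 for *Mef2c* and -0.62 and -0.62 for *St18*. In these fits the spread came from the WT pair alone, and the SE of *Isl1* was 0.32 and 0.31. *St18* also did not pass with library size scaling (edgeR adjusted p = 0.108) or with at least 10 counts in every library (edgeR adjusted p = 0.0549). *Dlx1*, which acts upstream in GABAergic differentiation, had 637 to 703 CPM in WT and 556 to 603 CPM in KO and did not pass (edgeR adjusted p = 0.423). The nearest factors by the root mean square distance of centred log2 CPM over the 4 libraries were *St18* for *Prox1* (0.0469) and *Bcl11b* for *Sp8* (0.0449), and each of these also stood second for the other gene. For *Nr2f2* the nearest was *Zeb2* (0.0508), for *Nr2f1* it was *Ebf1* (0.0987) and for *Maf* *Dlx6* (0.198). With 4 libraries such distances only describe these samples.

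Products of interneuron subtypes gave 14 tested genes out of 18, of which 1 was higher and 0 were lower in KO, beside 7.33% and 0.570% of all tested genes. The median log2 KO/WT ratio was -0.49. The higher gene was the chemokine gene *Cxcl14*, which gave 18 and 17 counts for the WT libraries against 427 and 392 for KO (log2 KO/WT ratio 4.60, SE 0.26, adjusted p in edgeR = 2.04e-05). *Reln*, the secreted glycoprotein reelin, had 279 and 312 CPM in WT and 231 and 242 CPM in KO and did not pass (edgeR adjusted p = 0.213), and neither did *Adarb2*, a marker of caudally derived interneurons (0.556). Of 18 genes listed as targets, receptors or partners of the 9 factors, all were tested, 2 were higher and 0 were lower in KO, beside the same shares of all tested genes. The 2 higher genes were *Fgfr1*, a fibroblast growth factor receptor (log2 KO/WT ratio 1.48, SE 0.14, adjusted p in edgeR = 0.000425), and *Notch1* (1.26, edgeR adjusted p = 0.00199). The guidance receptor *Nrp2*, whose expression COUP-TF proteins are known to influence, was at -0.39 on the log2 scale and did not pass (adjusted p in edgeR = 0.142).

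Markers of other cell types moved with the genotype, and their part in the values above was not tested. For comparison with the counts below, 7.33% of all tested genes were called higher and 0.570% lower in KO. All 12 astrocyte markers were higher in KO (summed level 279 to 293 CPM in WT, 3973 to 4144 CPM in KO), with *Gfap* at 0 in both WT libraries. Of 11 markers of the oligodendrocyte lineage 5 were higher (1416 to 1497 CPM in WT, 2155 to 2215 CPM in KO), and of 8 mural cell markers 6 were higher (53.6 to 61.3 CPM in WT, 380.1 to 380.5 CPM in KO), with *Acta2* at 0 in WT. Of 9 tested endothelial markers 1 was higher, *Slco1c1*, with 0.784 to 1.36 CPM in WT and 122 to 124 CPM in KO. The 9 other listed endothelial markers summed to 22.2 to 24.4 CPM in WT and 25.8 to 29.3 CPM in KO. Of the 8 of these that were tested 4 had higher values in both KO libraries and 2 had lower ones, beside 28.3% and 25.2% of all tested genes. Of 8 tested microglial markers 1 was higher (summed level of the list 31.2 to 34.98 CPM in WT, 58.6 to 66.0 CPM in KO). Of 5 tested choroid plexus markers 1 was lower, *Ttr*, with 40.8 and 55.3 CPM in WT and 0.951 and 1.10 CPM in KO, and the other listed markers summed to 13.9 to 16.9 CPM in WT and 9.15 to 11.1 CPM in KO. Among 5 tested fibroblast markers, 8 cycling markers and the 2 *Hmx3*-lineage markers 0 passed. Of 15 genes carried by neurons in general 3 were lower, *Elavl4*, *Syt1* and *Stmn2*, and the summed level was 7386 to 7802 CPM in WT and 5404 to 5424 CPM in KO. Of 8 glutamatergic markers 2 were lower, *Neurod6* and *Neurod2* (447 to 470 CPM in WT, 242 to 266 CPM in KO). The calls on *Syt1*, *Stmn2* and *Neurod2* were lost when either KO library was left out and that on *Elavl4* without KO replicate 2, all with negative values from -0.89 (*Neurod2*) to -0.48 (*Stmn2*). Of the 9 GABAergic markers 1 was higher (not without KO replicate 2) and 0 were lower, and the other 8 summed to 1282 to 1423 CPM in WT and 1100 to 1191 CPM in KO.

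The 9 genes were also set against the summed level of the 15 neuron genes in the same library. Since that sum was lower in KO, this scale by construction adds 0.49 to the log2 difference of every gene, and on it 66.8% of all tested genes had both KO libraries above both WT libraries and 2.23% had both below. *Prox1* had 11.2 and 10.2 CPM per 1000 CPM of neuron genes in WT and 9.49 and 10.2 in KO, and *Sp8* had 1.29 and 1.15 in WT and 1.21 and 1.18 in KO. The genotypes thus overlapped for both genes, whose log2 fold changes of -0.61 and -0.52 are close in size to the added 0.49. *Nr2f1* had 18.4 and 18.1 in WT and 26.6 and 27.4 in KO. Of the 9 genes 5 had both KO libraries above both WT libraries, beside that 66.8% of all tested genes. This scaling was chosen after the values were seen, and no test was run on it.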

How the data were processed

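RNA-seq was analysed for 2 WT and 2 KO libraries. Each library came as a list of whole-number counts for Ensembl gene identifiers, deposited by the authors without normalization. The submitters' processing notes name CASAVA 1.8.2, STAR 2.5.2a, featureCounts 1.5.0-p1 and the build GRCm38 (mm10). The annotation release, strand setting and treatment of multi-mapping reads are not given in the sources used here. Unstranded counting would add antisense reads.

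Of 55573 identifiers, 55480 matched GENCODE M21. After edgeR's expression filter 16832 genes were tested (TMM, quasi-likelihood test, genotype as the only term; edgeR 4.0.16, limma 3.58.1, R 4.3.3), with Benjamini-Hochberg adjustment over all of them and a threshold of 0.05. Standard errors and 95% intervals came from the test statistic. CPM used TMM-scaled sizes. Scripts were tested on simulated data. Alternatives used DESeq2 1.42.0, limma-voom, other scalings, filters and thresholds, the replicate number as a block, a trend correction for gene length and GC content, and each library left out. The 2 WT libraries differed by more than sampling noise, as did the 2 KO libraries (chi-square per degree of freedom 61.8 and 4.53), so that none is a copy of another. Each was entered as 1 sample, as the labels give it, although duplicates of 1 pool can differ in this way too. The labels give no batch.

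The genes and lists were chosen with earlier results of these data known. All 9 genes are named. From every other list, up to 4 genes with the largest change among those called were named, or up to 2 of the most abundant where fewer than 2 were called. *Dnmt1* and *Hmx3* were named as checks of the labels, overlapping genes where they had counts, and the lineage factors nearest to the 9 genes over the libraries. Some genes that this rule names are not reported here. *Nrp2*, *Npas3*, *Sp4*, *Pdpn* and *Flt4* and genes given only by name fall partly outside this rule and were chosen after their values were seen. Promoter sequences are from RefSeq (GRCm38.p6).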

Additional observations from a re-analysis of the deposited data

How the results depend on the processing

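All fits are edgeR with the reported settings unless named, and values are log2 KO/WT ratios. *Prox1* passed the threshold, with a value of -0.61 in DESeq2, -0.61 with DESeq2 size factors, -0.60 without a filter, -0.55 with the length and GC correction and -0.61 at an adjusted p of 0.1, so that 1 of the 9 genes was then lower instead of 0. Lower calls over all genes rose as well, from 96 of 16832 in the reported fit. They were 247 in DESeq2, 128 with DESeq2 size factors, 573 of 30006 without a filter and 1011 with the correction. The libraries share replicate numbers but nothing else pairs them (correlation of same-numbered deviations 0.183). With the replicate number as a block *Prox1* was -0.60 (adjusted p = 0.0158), and with the block and the length and GC correction -0.55, again 1 gene lower. Beside it, 619 and 1425 of the 16832 tested genes were lower in these fits. *Dnmt1* also passed in DESeq2 (-0.57), voom (-0.56), with DESeq2 size factors (-0.57), no filter (-0.55), the block (-0.56), the correction (-0.63), both (-0.63) and at 0.1 (-0.56). Signs turned under the correction for *Nr2f1* (-0.027, with the block -0.020) and *Sp9* (-0.017, with the block -0.0088), and for *Hmx3* with library size scaling (0.077), upper quartile scaling (0.012) and at least 10 counts in every library (0.0091). Library size scaling moved the median of all tested genes from -0.026 to 0.084. The cause of these shifts was not tested. A scale relative to neuron markers was chosen after seeing the data and by construction adds 0.49 to every gene. Its values are differences of mean log2 CPM between the genotypes and not edgeR ratios. They were 0.57 (*Nr2f1*), 0.27 (*Nr2f2*), -0.12 (*Prox1*), -0.031 (*Sp8*), 0.52 (*Sp9*), 0.37 (*Htr3a*), 0.71 (*Npas1*), 0.24 (*Maf*) and 0.35 (*Satb1*).

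With each library left out in turn, values ran from 0.014 to 0.12 (*Nr2f1*), -0.40 to -0.044 (*Nr2f2*), -0.73 to -0.50 (*Prox1*), -0.65 to -0.41 (*Sp8*), -0.17 to 0.24 (*Sp9*), -0.55 to 0.33 (*Htr3a*), 0.029 to 0.41 (*Npas1*), -0.61 to 0.15 (*Maf*), -0.30 to 0.024 (*Satb1*), -0.67 to -0.46 (*Dnmt1*) and -0.23 to 0.16 (*Hmx3*). Of the 9 genes, 0 to 2 were then lower, 1 (*Prox1*) without WT replicate 1 and 2 (*Prox1* and *Nr2f2*) without WT replicate 2, and over all genes 900 to 2578 were higher and 51 to 2180 lower. The remaining library of that genotype was assumed to vary like the other pair. Leaving out either WT library also made lower calls over all tested genes more frequent than in the reported fit. The added lower calls among the 9 genes are therefore not particular to them. Genes called higher numbered 1233, 2133 with the block and correction and 724 at an adjusted p of 0.01. Genes called lower numbered 96, but 247 in DESeq2, 573 with no filter, 52 with at least 10 counts in every library, 619 with the block, 1011 with the correction, 1425 with both, 16 at 0.01 and 318 at 0.1. The share of calls that were higher was 92.8%, against 83.5% in DESeq2, 75.8% with no filter, 72.4% with the block, 64.6% with the correction and 59.9% with both. In these fits more genes were called in both directions than in the reported fit, and lower calls grew by the larger factor. The share was lower too when either WT library was left out. *Stmn2* also did not pass with library size or upper quartile scaling, with at least 10 counts in every library or with the correction. The intervals of *Sp8*, *Sp9*, *Htr3a*, *Npas1* and *Maf*, at 55 to 220 counts, are the widest of the 9 genes.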
